A study of Rattus norvegicus with 12 samples.

Results

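The genes described here are 9 regulators of transcription that set up or maintain the identity of the cardiac chambers. They were selected in the table by name, a rule that uses no measured value, although the set was chosen with earlier results of these data known. They comprise the HAND factors Hand1 and Hand2, the T-box factors Tbx5, Tbx20 and Tbx3, the zinc finger factors Gata4 and Gata6, the GATA cofactor Zfpm2 (also called FOG2) and the homeobox factor Nkx2-5. All 9 were found among the 32545 genes of the deposited table, and all 9 were among the 13910 genes that passed the filter on low values. RNA was taken at postnatal day 7 from the free walls of the left (LV) and right (RV) ventricles of SD (Sprague–Dawley) rats, which had been operated on at postnatal day 1. Volume overload (VO) was made by an arteriovenous fistula (AVF), a shunt that raises venous return to the heart, and sham rats were operated on without it. There were 3 libraries for each chamber of sham rats (sham LV and sham RV) and of VO rats (VO LV and VO RV), 4 groups in all. No genetic change is given for any group, the pups were operated on under isoflurane and ice cooling with lidocaine for pain, and the tissue was whole free wall, so fewer cells of a type and less RNA per cell cannot be told apart in these values. No label says that replicates came from separate animals, and the p-values therefore measure the spread between these libraries.

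The cardiac identity factors work as a network in which GATA, T-box, NKX and HAND proteins bind enhancers of contractile, ion channel and hormone genes, often side by side, and regulate each other. In the embryo, Hand1 marks the future left ventricle and Hand2 predominates in the future right ventricle. Tbx5 is expressed in the atria and left ventricle, Tbx20 promotes chamber myocardium, and Tbx3 represses the working myocardial program in the conduction system.

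The libraries held 14121713 to 16871371 reads on genes, and mitochondrial transcripts took 14.4% to 26.2% of them. The markers of cardiomyocytes were high in every library, at a summed 18543 to 29275 FPKM, which are fragments scaled by transcript length and library size, over 10 genes. VO RV replicate 2 and sham RV replicate 1 stood apart by 3 of 5 atrial markers. Sln, an atrial regulator of the calcium pump, was at 388 and 97.7 FPKM in these libraries and at 0 to 0.678 in the other 10. The calls of Hand1, Gata4 and Tbx20 and the sham difference of Tbx5 are given with and without them. The calls of single genes in the other lists are given with them only. Y-linked transcripts were present in 5 libraries and near 0 in 7, among them all 3 libraries of VO LV. VO LV replicate 3 lacked them and VO RV replicate 3 had them, so libraries of the same number were not always from 1 animal. The level of long transcripts also differed between libraries. The slope of log2 level on gene length, measured against the mean of the 12 libraries, ran from −0.0596 log2 units per doubling of length in sham LV replicate 2 to 0.0510 in sham RV replicate 1. It was −0.0596 to −0.0277 in sham LV and −0.000618 to 0.0510 in sham RV, while VO LV ran from 0.00154 to 0.0452 and VO RV from −0.0340 to 0.0356, so the sham chambers did not overlap in it.

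Hand1 and Hand2 are paralogs with opposite chamber preference in the embryo, and their upstream sequences are shown because Hand1 differed between the chambers most clearly and Hand2 did not pass the test. The 250 bases before the start of each gene were taken from RefSeq (GRCr8), which held a promoter for 6 of the 9 genes (Hand1, Hand2, Tbx5, Tbx20, Gata6 and Nkx2-5). The Hand1 sequence lies on the minus strand at chr10:42509685-42509934 and the Hand2 sequence on the minus strand at chr16:37931489-37931738. Both are written 5′ to 3′ in the direction of the gene, and capitals mark matches to the motifs searched.
Hand1: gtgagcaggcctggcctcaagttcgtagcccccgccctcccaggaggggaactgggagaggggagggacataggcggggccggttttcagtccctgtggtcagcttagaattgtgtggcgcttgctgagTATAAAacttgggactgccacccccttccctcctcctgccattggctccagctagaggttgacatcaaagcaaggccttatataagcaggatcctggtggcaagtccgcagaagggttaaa
Hand2: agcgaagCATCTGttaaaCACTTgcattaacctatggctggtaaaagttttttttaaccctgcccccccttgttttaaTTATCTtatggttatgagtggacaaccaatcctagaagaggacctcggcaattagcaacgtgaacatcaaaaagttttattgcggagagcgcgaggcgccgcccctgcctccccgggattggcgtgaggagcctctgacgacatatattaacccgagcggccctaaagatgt

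The motifs searched on both strands were AGATAA or AGATAG, together with TGATAA or TGATAG, for GATA factors, GGTGTGA for T-box factors, CATCTG for HAND factors, AAGTG for NKX2-5 and TATAAA for the TATA box. The Hand1 window held a TATA box match 121 to 116 bases before the start and no other match. The Hand2 window held a HAND match 243 to 238 bases before the start, an NKX2-5 match on the opposite strand at 232 to 228 bases and a GATA match on the opposite strand at 172 to 167 bases. Of the other 4 windows, that of Tbx5 held a GATA match on the opposite strand and those of Tbx20, Gata6 and Nkx2-5 held none. Among 33469 rat promoter windows, 27.0% held a GATA match, 3.22% a T-box match, 14.0% a HAND match, 40.6% an NKX2-5 match and 12.9% a TATA box match, so most of these matches are frequent by letters alone.

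The levels of the 9 genes, which FPKM allow to be compared as far as the listed gene lengths hold, lay from the lower part to near the top of the range of tested genes. The mean over 12 libraries was 2.19 FPKM for Hand1, at the 20.8th percentile of tested genes, and 106 FPKM for Nkx2-5, at the 95.3rd percentile. Nkx2-5 was highest in every group, at 97.8 ± 13.8 FPKM (SD, n = 3) in sham LV and 115 ± 6.14 in VO LV, 110 ± 4.69 in sham RV and 102 ± 14.1 in VO RV, and all its libraries stood above those of the next gene, Gata4. Neighbours lower in the order were often not separated. Gata4 and Gata6 overlapped in sham LV, Tbx20 and Gata6 overlapped in the other 3 groups, and Zfpm2 and Tbx5 overlapped in sham RV, VO LV and VO RV. Hand1 was lowest in sham LV, sham RV and VO RV, and in the RV groups its libraries lay below those of Tbx3. In VO LV the libraries of Hand1 and Tbx3 overlapped.

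**Figure D1:**
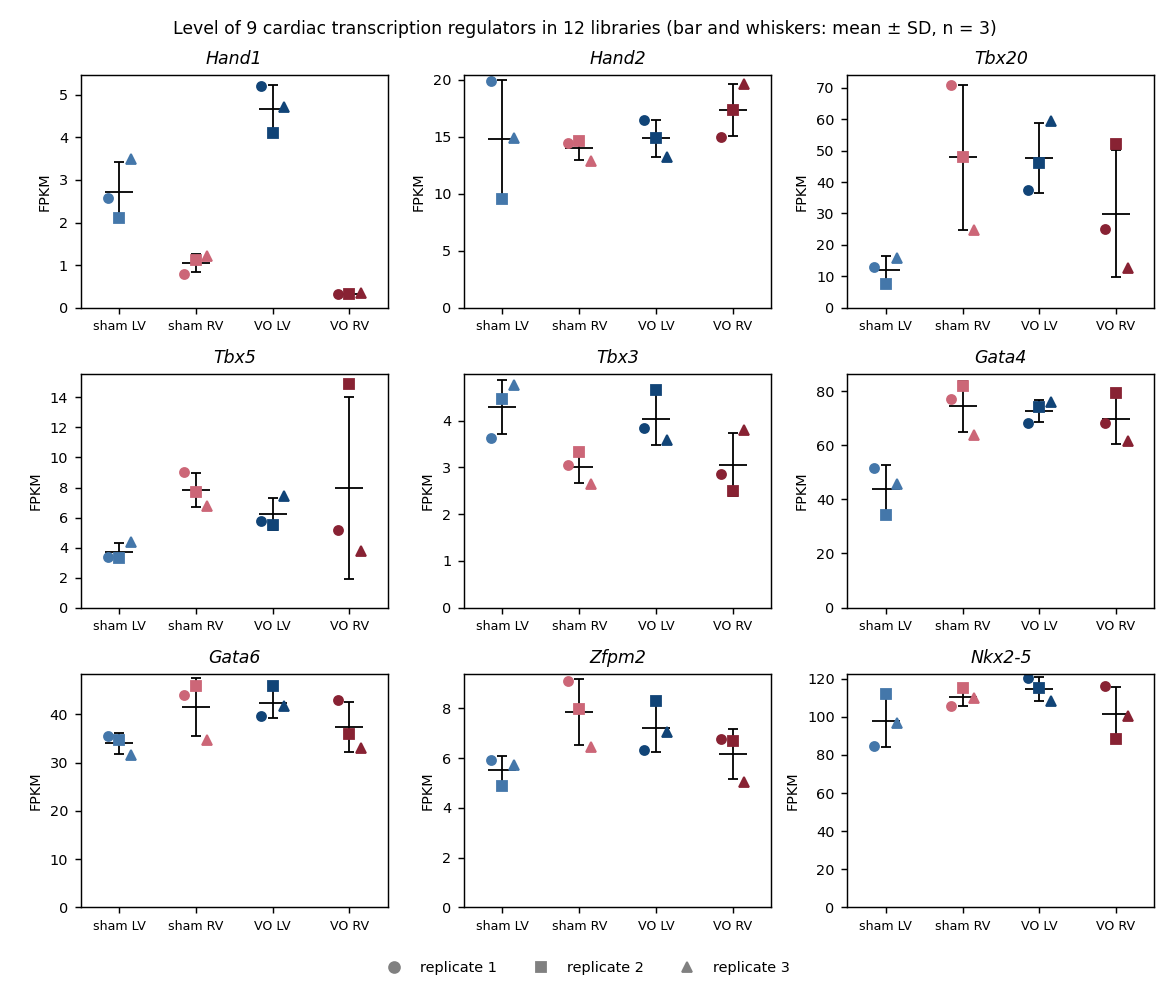
FPKM of each gene (y axes, linear from 0) in the 3 libraries of each group (x axes); points are libraries and the bar with whiskers is the mean ± SD. Hand1 separates the LV groups from the RV groups in all 12 libraries, Tbx20 spreads from 7.57 to 70.9 FPKM, and Gata6 and Nkx2-5 vary by less than 1.5-fold over all libraries.

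Hand1, the basic helix-loop-helix factor of the left ventricle, was higher in the LV than in the RV in both treatments. In sham LV it was at 2.58, 2.10 and 3.48 FPKM, and in sham RV at 0.802, 1.13 and 1.21. In VO LV it was at 5.21, 4.10 and 4.71 FPKM, and in VO RV at 0.318, 0.316 and 0.345. The VO groups thus lay at the top and bottom of all libraries with the sham groups between them, and no 2 of the 4 groups overlapped. The values rest on few reads, 36 to 51 in sham LV and 72 to 89 in VO LV, 14 to 19 in sham RV and 5, 6 and 6 in VO RV, and the exact Poisson 95% interval of 5 reads is 1.62 to 11.7, which covers counting error only.

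Between sham LV and sham RV, the log2 difference of Hand1 was 1.04 (SE 0.18, adjusted p = 0.0319 by limma), a 2.60-fold ratio of the mean FPKM. Between VO LV and VO RV it was 2.64 (SE 0.18, 95% interval 2.24 to 3.04, adjusted p = 0.000171). The log2 differences are on the log2(FPKM + 0.5) scale, which understates low genes, so that the latter corresponds to 6.24-fold on that scale and to 14.3-fold for the mean FPKM. Of 13910 genes, Hand1 was the only DEG between VO LV and VO RV (0.00719% of genes), and it had the smallest p and the sixth largest difference in size. The criteria for a DEG were p under 0.05 after adjustment and more than a 1.3-fold change. The call held in all 30 alternative settings, each library left out in turn included, with log2 differences from 2.09 to 3.72.

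**Figure D2:**
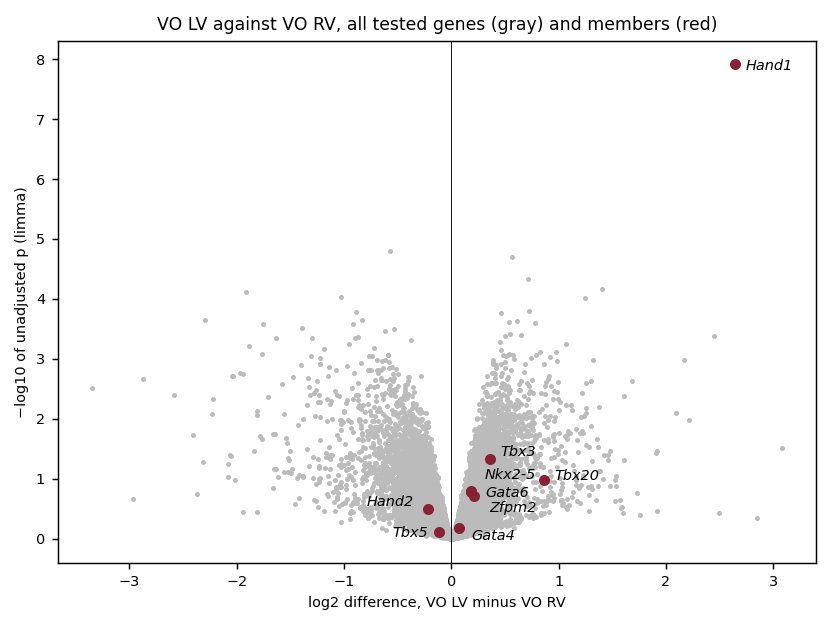
Log2 difference between VO LV and VO RV (x axis, log2(FPKM + 0.5) scale) against −log10 of the unadjusted limma p (y axis) for 13910 tested genes in gray and the 9 regulators in red. Hand1, at 2.64, has the smallest p of all genes, whereas the other 8 lie within the cloud.

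Over both treatments, with 6 LV libraries against 6 RV libraries, the log2 difference of Hand1 was 1.84 (SE 0.13, adjusted p = 0.000198). It was again the gene with the smallest p of 13910, among 12 DEGs (0.0863% of genes). The 6 LV libraries were all above the 6 RV libraries, which was so for 0.855% of tested genes, and an exact permutation test of the chamber labels within each treatment gave p = 0.005, the smallest possible. Without VO RV replicate 2 and sham RV replicate 1, the 2 libraries with atrial transcripts, the call between VO LV and VO RV and the call over both treatments remained.

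After VO, the levels of Hand1 lay on opposite sides of the sham levels in the LV and the RV. All 3 VO LV libraries were above all 3 sham LV libraries, with a log2 difference of 0.70 (SE 0.18, adjusted p = 0.0715), which did not pass. All 3 VO RV libraries were below all 3 sham RV libraries, with a log2 difference of −0.89 (SE 0.18, unadjusted p = 0.000442, adjusted p = 0.482 by limma), which did not pass either, in a comparison in which 0 of 13910 genes were DEGs. The difference between both responses was 1.60 (SE 0.26, adjusted p = 0.0249 by limma) and passed, among 583 genes (4.19%). It combines all 4 groups, and its sham and VO libraries are those of the comparisons above. The sham call and the call for the difference between responses were each lost in 10 of the alternative settings, among them leaving out sham LV replicate 1 or 2, sham RV replicate 1 or 2 or VO LV replicate 2, and the latter call also without VO LV replicate 3. With both atrial libraries left out, the sham difference was 0.92 with adjusted p = 0.109 and the difference between responses 1.71 with adjusted p = 0.0615 by limma. Among the 7 libraries without Y-linked transcripts, Hand1 was at 3.48 FPKM in sham LV replicate 3 against 4.10 to 5.21 in VO LV, and at 1.21 in sham RV replicate 3 against 0.318 and 0.316 in VO RV replicates 1 and 2. This leaves 1 sham library per chamber, so the spread cannot be judged and no difference was tested in it.

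Hand2, the paralog of Hand1, passed in no comparison. It was at 19.9, 9.56 and 14.9 FPKM in sham LV, at 14.5, 14.6 and 12.8 in sham RV, at 16.5, 14.9 and 13.2 in VO LV and at 14.99, 17.4 and 19.6 in VO RV. The groups overlapped except VO RV and sham RV, where the log2 difference was 0.30 (SE 0.21, adjusted p = 0.697 by limma). Over both treatments the log2 difference between LV and RV was −0.10 (95% interval −0.42 to 0.23). Sham LV replicates 1 and 2 spanned the whole range of the 12 libraries.

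The ratio of Hand1 to Hand2 within a library does not depend on scaling. It was 0.130, 0.220 and 0.234 in sham LV and 0.0555, 0.0774 and 0.0943 in sham RV, while after VO it was 0.316, 0.276 and 0.358 in the LV and 0.0212, 0.0182 and 0.0176 in the RV. No 2 groups overlapped. The exact permutation p was 0.1 for each pair of chambers or treatments, the smallest that 3 libraries against 3 allow, and 0.005 for the chambers within treatments. The table lists 645 bases for Hand2, a multiple of 3, and 1057 bases for Hand1, which is not, so the ratio itself depends on these gene models while its comparison between groups does not.

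**Figure D3:**
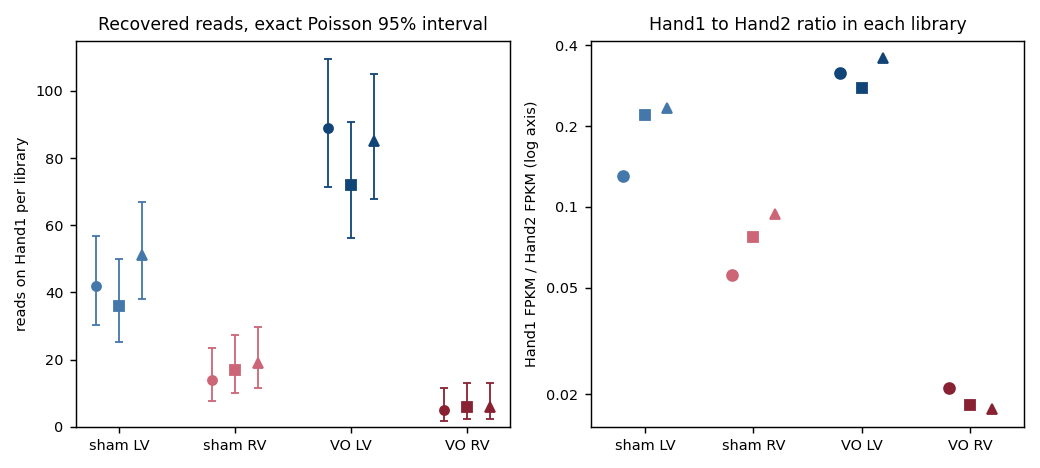
Left, reads on Hand1 in each library (y axis, linear) with the exact Poisson 95% interval, by group; right, the ratio of Hand1 to Hand2 FPKM in each library (log axis). VO RV holds 5 or 6 reads per library against 72 to 89 in VO LV, and the ratio falls into 4 separate ranges, from 0.0176 to 0.0212 in VO RV up to 0.276 to 0.358 in VO LV.

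Gata4, a zinc finger activator of contractile and natriuretic peptide genes, was lower in sham LV when compared with sham RV. It was at 51.6, 34.4 and 45.7 FPKM in sham LV and at 77.3, 82.1 and 64.0 in sham RV, without overlap. The log2 difference was −0.77 (SE 0.15, adjusted p = 0.0343 by limma). In VO LV it was at 68.3, 74.3 and 75.9 FPKM and in VO RV at 68.1, 79.3 and 61.5, so that the VO chambers overlapped. All VO LV libraries were above all sham LV libraries, at a log2 difference of 0.74 (SE 0.15, adjusted p = 0.0524), which missed the threshold, as did the difference between responses, 0.84 (SE 0.21, adjusted p = 0.0514). The 3 sham LV libraries thus lay below the libraries of the other 3 groups. The sham call was lost in 11 of 30 alternative settings, among them those without sham LV replicate 1 or 2, sham RV replicate 1 or 2 or VO LV replicate 2. The adjusted p of Gata4 was 0.110 by limma without both atrial libraries and 0.0753 with the replicate number as a block.

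Gata6, which overlaps with Gata4 in function, was at 31.6 to 35.5 FPKM in sham LV and 39.6 to 45.8 in VO LV, 34.6 to 45.9 in sham RV and 33.0 to 43.0 in VO RV, and was no DEG. All VO LV libraries were above all sham LV libraries (log2 difference 0.32, SE 0.12, adjusted p = 0.162 by limma). Zfpm2, a cofactor that binds GATA4 and modulates its activity, was at 4.87 to 5.91 FPKM in sham LV and 6.34 to 8.30 in VO LV, 6.45 to 9.10 in sham RV and 5.02 to 6.78 in VO RV. Its log2 differences were −0.47 (SE 0.16, adjusted p = 0.0978) between sham chambers and 0.68 (SE 0.22, adjusted p = 0.0931) between responses, and neither passed. The ratio of Gata4 to Gata6 was 1.297 ± 0.266 (SD, n = 3) in sham LV and 1.72 ± 0.0961 in VO LV, 1.80 ± 0.0476 in sham RV and 1.88 ± 0.309 in VO RV. The sham LV values of the ratio lay below those of sham RV and of VO LV without overlap (exact permutation p = 0.1 each, the smallest possible).

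Tbx20, a T-box factor of chamber myocardium, had the largest spread within groups of the 9 genes. It was at 13.1, 7.57 and 15.8 FPKM in sham LV, at 70.9, 48.0 and 24.7 in sham RV, at 37.3, 46.1 and 59.4 in VO LV and at 24.96, 52.2 and 12.7 in VO RV. Sham LV lay below sham RV and below VO LV without overlap, whereas VO RV spread over most of the range. The residual SD was 0.70 on the log2 scale, at the 95.4th percentile of tested genes. The log2 difference between sham chambers was −1.87 (SE 0.49, adjusted p = 0.0540 by limma) and that between VO LV and sham LV was 1.96 (SE 0.49, adjusted p = 0.0663). Neither passed. The difference between responses was 2.73 (SE 0.69, adjusted p = 0.0497) and passed narrowly, and the call was lost in 18 of 29 alternative settings, among them leaving out any library other than VO RV replicate 2, sham LV replicate 3 or sham RV replicate 3. Leaving out both atrial libraries also lost it.

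The level of Tbx20 followed the slope of the library on gene length. Over the 12 libraries Pearson's r was 0.96 and Spearman's rho 0.99 (permutation p = 2e-05 and 1e-05, the latter the smallest that 100000 permutations can give; adjusted over 27 relations, 0.00054 and 0.00027), and r was 0.93 without the libraries at either end, sham LV replicate 2 and sham RV replicate 1. The permutations exchanged libraries across groups, so these p-values also contain differences between groups. The absolute r was at the 99.8th percentile of tested genes. With the slope as a covariate, an alternative chosen after seeing the data, the log2 difference of Tbx20 between responses was 0.61 (adjusted p = 0.556 by limma) in place of 2.73, and that between sham chambers was −0.26 in place of −1.87. The slope did not overlap between sham LV and sham RV, so the covariate and the groups cannot be fully told apart. Removing each library's trend on gene length itself left the difference between responses at 2.71 (adjusted p = 0.0564). Tbx5, Gata4 and Zfpm2 also followed the slope (r 0.87, 0.86 and 0.82, adjusted permutation p 0.00198, 0.00135 and 0.00788 over 12 libraries), at the 93.4th, 91.5th and 87.1st percentiles of the absolute r of tested genes, so other tested genes reached such values too. Hand1 did not pass for this relation (r −0.06, adjusted permutation p = 0.854), and with the covariate its log2 difference was 1.03 in sham and 1.61 between responses, close to the values without it. Neither passed (adjusted p = 0.685 and 0.376 by limma), in a setting with 1 and 0 DEGs over all genes. The call of Hand1 between VO LV and VO RV remained, at 2.65 with adjusted p = 0.00103 by limma. For Gata4, the covariate gave −0.39 in sham in place of −0.77 (adjusted p = 0.692).

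**Figure D4:**
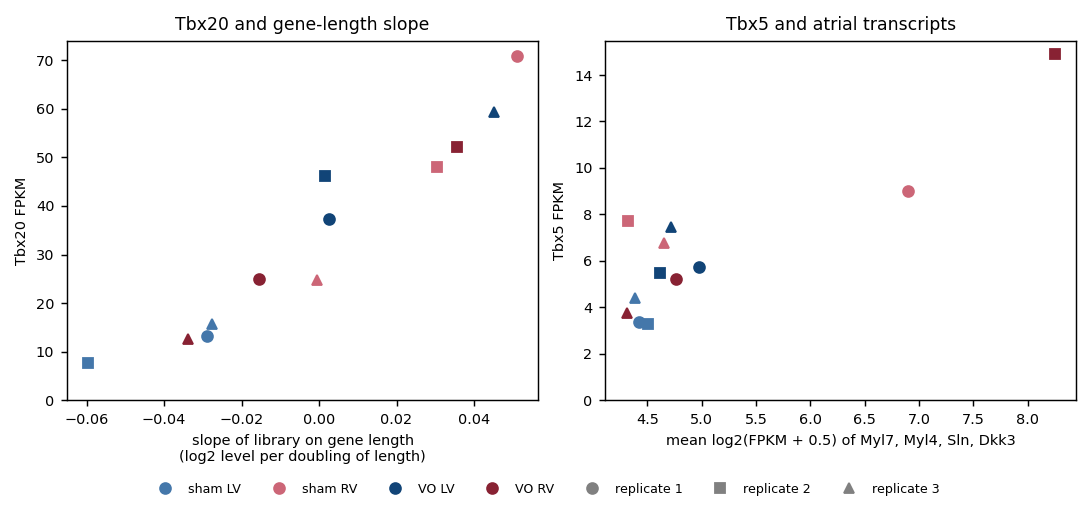
Left, Tbx20 FPKM (y axis) against each library's slope of log2 level on gene length (x axis, log2 units per doubling); right, Tbx5 FPKM (y axis) against the mean log2(FPKM + 0.5) of 4 atrial markers (x axis); points are the 12 libraries, with colors for groups and shapes for replicates. Tbx20 climbs along the slope from 7.57 to 70.9 FPKM across groups, and the highest Tbx5 value, 14.9 FPKM, is in the library with the highest atrial markers.

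Tbx5, a T-box partner of Nkx2-5 and Gata4, was at 3.34, 3.29 and 4.39 FPKM in sham LV, at 9.01, 7.70 and 6.74 in sham RV, at 5.74, 5.49 and 7.44 in VO LV and at 5.19, 14.9 and 3.75 in VO RV. Sham LV lay below sham RV and below VO LV without overlap. The log2 difference was −0.996 (SE 0.37, adjusted p = 0.121 by limma) between sham chambers and 0.69 (SE 0.37, adjusted p = 0.278) between VO LV and sham LV, and neither passed. The library at 14.9 FPKM was VO RV replicate 2, and sham RV replicate 1 was the highest of its group. In these 2 libraries Sln was at 388 and 97.7 FPKM, the atrial light chain Myl7 at 463 and 138 (21.4 to 75.5 in the other 10) and the atrial growth factor Bmp10 at 72.4 and 12.6 (0 to 0.152 in the others). The other 2 markers of the list did not set both libraries apart, since Myl4 was at 599 and 191 FPKM (126 to 265 in the other 10) and Dkk3 at 78.3 in both (77.9 and 79.2 in the other sham RV libraries). Dkk3 was also the only DEG of the list between sham chambers, lower in the LV at a log2 difference of −0.73 (adjusted p = 0.0319 by limma). Without VO RV replicate 2, Tbx5 was lower in the sham LV with adjusted p = 0.0283 by limma. That library enters the sham comparison only through the shared estimate of the spread, and the sham values were the same. In a separate fit of the sham libraries the adjusted p of Tbx5 was 0.0353 by limma. Without both atrial libraries it was 0.108 in the joint fit. Over the 12 libraries Tbx5 correlated with the mean log2 level of 4 atrial markers (Sln, Myl7, Myl4 and Dkk3, without Bmp10) by Pearson's r (0.80, permutation p adjusted over 27 relations = 0.00722) and not by Spearman's rho (0.59, adjusted permutation p = 0.174), and without both libraries r was 0.37, so the relation rests on them. With the atrial marker mean as a covariate, the log2 difference of Tbx5 between sham chambers was −0.70 (adjusted p = 0.0985 by limma).

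Tbx3, a repressor found in the conduction system, was at 3.64, 4.47 and 4.75 FPKM in sham LV, at 3.05, 3.33 and 2.65 in sham RV, at 3.85, 4.65 and 3.59 in VO LV and at 2.87, 2.49 and 3.81 in VO RV. The LV values were mostly above the RV values, with 1 VO RV library among them. Over both treatments the log2 difference was 0.40 (SE 0.11, adjusted p = 0.195 by limma), which did not pass, and the exact permutation p within treatments was 0.01. Its response to VO was −0.08 (95% interval −0.43 to 0.28) in the LV and 0.01 (−0.35 to 0.36) in the RV. Of 14 conduction system markers 9 were tested. Hcn4, the pacemaker channel, was lower in sham LV when compared with sham RV (0.656 against 3.53 FPKM, log2 difference −1.80, SE 0.28, adjusted p = 0.0319 by limma) and lower in the LV over both treatments (−1.51, SE 0.20, adjusted p = 0.0221), the only DEG of the list in each, beside 3.85% and 0.0863% of all genes. For the difference between responses the list's only DEG was Hcn2, another channel of this family (1.12, SE 0.26, adjusted p = 0.0409 by limma; 4.19% of all genes). Summed over the 14 markers, sham LV was at 88.9 to 98.5 FPKM and sham RV at 106 to 117, whereas VO LV at 95.8 to 115 and VO RV at 97.5 to 118 overlapped.

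Nkx2-5, the homeobox factor at the center of the network, was at 84.6, 112 and 96.6 FPKM in sham LV, at 106, 115 and 110 in sham RV, at 120, 115 and 108 in VO LV and at 116, 88.3 and 100 in VO RV. The groups overlapped in every comparison. Over both treatments the log2 difference between LV and RV was −0.0028 (95% interval −0.19 to 0.18), the closest to 0 of the 9 genes.

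**Figure D5:**
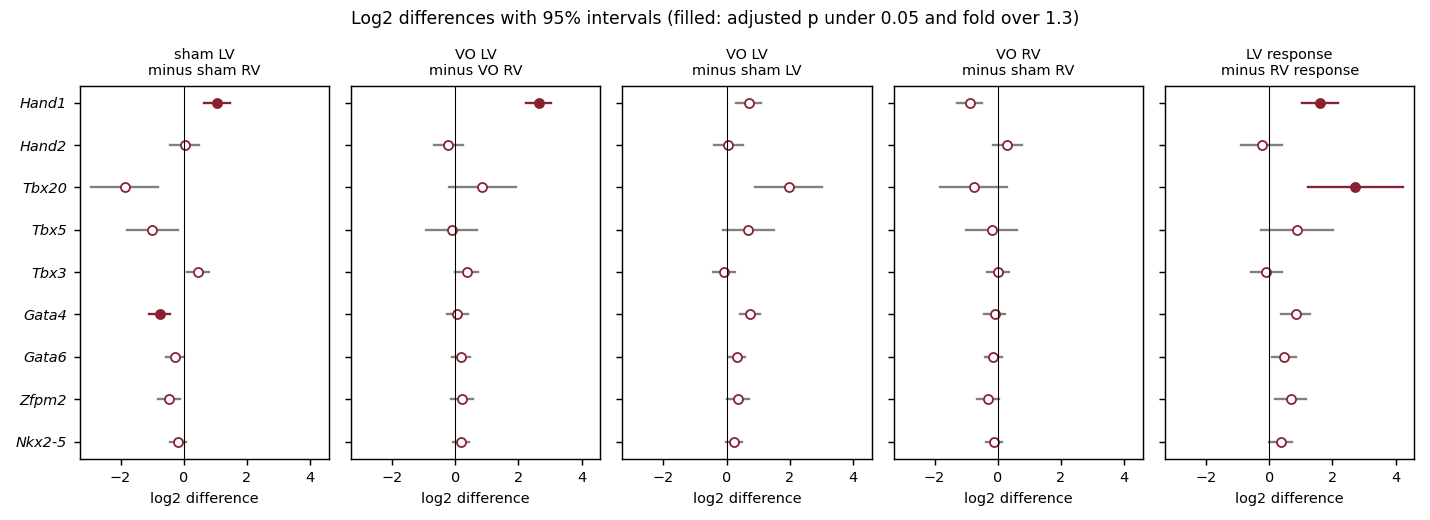
Log2 difference (x axis, log2(FPKM + 0.5) scale) and its 95% interval for each gene in 5 comparisons; filled red circles mark DEGs. Hand1 lies on opposite sides of 0 in VO LV minus sham LV (0.70) and VO RV minus sham RV (−0.89), and the interval of Tbx20 is the widest in each panel.

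Counted over the 9 genes, 2 were DEGs between the sham chambers (Hand1 higher and Gata4 lower in the LV, where 3.85% of all tested genes were DEGs, 1.5% higher and 2.35% lower), 1 between the VO chambers, 0 between VO LV and sham LV (0.0935% of all genes), 0 between VO RV and sham RV, 2 for the difference between responses (Hand1 and Tbx20, both above 0, as were 3.46% of all genes) and 1 over both treatments. By an unadjusted p under 0.05 and the same fold change, the counts were 6 between sham chambers (17.8% of all genes), 1 between VO chambers (7.4%), 3 for VO in the LV (15.7%), 1 for VO in the RV (4.91%), 5 for the difference between responses (23.1%) and 2 over both treatments (4.49%). The groups did not overlap for 6 genes between sham chambers (32.2% of all genes), for 6 between VO LV and sham LV (32.4%), for 1 between VO LV and VO RV (16.1%) and for 2 between VO RV and sham RV (12.5%). The median log2 difference of the 9 genes between responses was 0.68, beside −0.04 over all tested genes, with 7 above 0. The comparisons share libraries, sham LV being part of both the sham chamber difference and the LV response.

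Other cardiac transcription factors, a list of 40 of which 33 were tested, were described beside them. Between the sham chambers 0 were higher and 5 were lower in the LV by the DEG criteria (1.5% and 2.35% of all genes), and the list had a median log2 difference of −0.19 (0.01 over all genes). They were Srf, the serum response factor (38.7 ± 3.66 against 64.5 ± 2.87 FPKM, SD, n = 3; log2 difference −0.73), its coactivator Myocd (−0.85), the muscle methyltransferase Smyd1 (−1.67), Meis2 (−1.11) and Mef2d (−0.67). For the difference between responses 7 were DEGs, all above 0, where 4.19% of all genes were DEGs and 481 of these 583 were above 0. Among them were Smyd1 (2.68), Myocd (1.38), Srf (0.93), Mef2d (1.11) and Tead1 (1.59), with adjusted p from 0.0249 to 0.0449 by limma for these 5. Over all genes this comparison had 0 DEGs with the slope covariate or without sham RV replicate 1. The same held without VO LV replicate 2 or 3, or sham LV replicate 1 or 2, so all 7 calls were lost there. Without both atrial libraries, the DEGs over all genes were 2 for this difference and 7 between the sham chambers. No gene of the list passed between VO LV and VO RV, where Tbx18 (−0.69, adjusted p = 0.239) and Prdm16 (0.47, adjusted p = 0.251) had the smallest p. Over both treatments no gene passed either, and the smallest p were those of Meis2 (−0.76, SE 0.15, adjusted p = 0.0858 by limma) and the Iroquois homeobox factor Irx1 (1.13, SE 0.28, adjusted p = 0.147).

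Of 28 genes known as targets of these factors in working myocardium, 27 were tested. Between sham chambers 1 was higher and 4 were lower in the LV (1.5% and 2.35% of all genes). The higher one was Nppb, the B-type natriuretic peptide (227 ± 14.5 against 102 ± 31.9 FPKM, SD, n = 3; log2 difference 1.20), and it was also the only DEG of the list over both treatments (1.13, SE 0.16, adjusted p = 0.0262 by limma). The lower ones were the potassium channel Kcnj2 (−1.66), the ryanodine receptor Ryr2 (−0.94), the sodium-calcium exchanger Slc8a1 (−1.87) and the calcium pump Atp2a2 (−0.82). For the difference between responses 7 were DEGs, all above 0, beside 4.19% of all genes called and 3.46% called above 0. Among them were Kcnj2 (2.43), Slc8a1 (2.63), Ryr2 (1.61), Myh7 (1.18) and Myh6 (0.89). Over all genes 0 were DEGs for this difference with the slope covariate or without sham RV replicate 1. The same held without VO LV replicate 2 or 3, or sham LV replicate 1 or 2, so all 7 calls were lost there. The sham calls of this list were also lost without sham RV replicate 1. In the VO chambers and in either response alone 0 of 27 were DEGs, against 6, 12 and 7 by unadjusted p under 0.05 with the same fold, where the shares over all genes were 7.4%, 15.7% and 4.91%.

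The genes whose pattern over the 12 libraries was most like each of the 9 were taken by Pearson's r of the log2 level, as a description. For Hand1 they were Ehd1 (r 0.94) and Mgll (0.89), for Hand2 Asun (0.87) and the pseudogene LOC100360491 (0.86), and for Tbx3 Aplnr (0.94) and Papln (0.91). For Tbx20 they were Lmtk2 (0.99) and Tmcc1 (0.98), for Tbx5 Arl5a (0.97) and Pam (0.96), for Gata4 Tpp1 and Hdlbp (0.96 each), for Gata6 Znfx1 (0.91) and Ghr (0.90), for Zfpm2 Mmp17 (0.95) and Dmd (0.94), and for Nkx2-5 Arfgap2 and Klhl30 (0.90 each). Among the 9 genes, Tbx20 was closest to Gata4 (r 0.90) and to Zfpm2 (0.89), and Hand1 was closest to Tbx3 (0.67). The libraries differ in depth, gene-length slope and group, and these values contain those differences.

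Markers of other cell types were set beside the chamber differences. Of 7 endothelial and endocardial markers tested, the 3 DEGs Tie1 (0.54), Emcn (0.56) and Kdr (0.42) were higher in sham LV than in sham RV, beside 3.85% of all genes called, and the list summed to 355 to 378 FPKM against 269 to 292. Without sham RV replicate 1, 0 of all genes were DEGs between the sham chambers, so these calls were lost. With the slope covariate 1 of all genes was a DEG. By unadjusted p (17.8% of all genes), 2 of the 7 were lower in sham LV, where mean levels were 2.70 against 10.2 FPKM for Npr3 and 2.27 against 4.91 for Plvap. Of 7 epicardial markers tested, Wt1 was a DEG (0.55), whereas 2 were lower in sham LV by unadjusted p, the median log2 difference was −0.65 and Msln, a mesothelial surface protein, was at 4.89 against 14.4 FPKM. Between VO LV and VO RV, 5 of the 7 were lower in the LV by unadjusted p (7.4% of all genes in either direction), with a median of −1.28. Over both treatments 5 were lower in the LV (4.49% of all genes in either direction), with a median of −0.96. In these 2 comparisons 0 of the 7 were DEGs. Red blood cell markers summed to 13332 to 17264 FPKM in sham LV and 6750 to 11319 in sham RV without overlap, and 0 of 5 tested were DEGs while 4 were higher in sham LV by unadjusted p (17.8% of all genes in either direction). In VO they overlapped, at 8642 to 13743 FPKM in the LV and 6698 to 15103 in the RV. Of 8 macrophage markers, the complement gene C1qb was a DEG for the difference between responses (−0.92, SE 0.22, adjusted p = 0.0440 by limma; 4.19% of all genes), 3 of the 8 were lower by unadjusted p and the median was −0.49, beside −0.04 over all genes. Of 9 fibroblast markers 0 were DEGs in any comparison by limma, with a sum of 2069 to 2549 FPKM in VO LV and 2538 to 4944 in VO RV, against 6 at an unadjusted p under 0.05 between these groups (7.4% of all genes). Without VO RV replicate 2, the fibroblast sum in VO RV was 2538 to 3049 FPKM. Th, the tyrosine hydroxylase of sympathetic neurons, set here because Hand2 also acts in such neurons, was at 0 to 0.140 FPKM, whereas the noradrenaline enzyme Dbh was at 0.937 to 2.90 and the neuronal filament gene Prph at 3.28 to 6.58 in the 12 libraries, and 0 of the 4 genes of this list that were tested were DEGs in any comparison by limma (Prph by unadjusted p in 3 of 6 comparisons). The part of these cell types in the levels of the 9 genes was not tested.

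By position, as the deposited table lists it in a build that is not given in the sources used here, Hand1 (ENSRNOG00000002582) lies on chromosome 10 at 43250745 to 43253296 and Nkx2-5 (ENSRNOG00000020747) on the same chromosome at 16635989 to 16638764. Tbx5 (ENSRNOG00000001399; 42097626 to 42148146) and Tbx3 (ENSRNOG00000008706; 42480560 to 42492526) are neighbors on chromosome 12. Hand2 (ENSRNOG00000060448) lies on chromosome 16 at 36371489 to 36373546, Tbx20 (ENSRNOG00000016181) on chromosome 8 at 25850962 to 25904570 and Gata4 (ENSRNOG00000010708) on chromosome 15 at 46386712 to 46432965. Gata6 (ENSRNOG00000023433) lies on chromosome 18 at 2416552 to 2446338 and Zfpm2 (ENSRNOG00000004109) on chromosome 7 at 79638046 to 79964405. All 9 are listed as protein coding, and 0 of them overlap another gene of the table. The neighbors Tbx5 and Tbx3 had opposite signs between the sham chambers (−0.996 and 0.44), and neither passed the test.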

How the data were processed

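RNA of LV and RV free walls of P7 rats was sequenced after AVF (VO) or sham surgery on P1, in 4 groups of 3 libraries. Libraries were made from poly-T purified RNA with the NEBNext Ultra RNA Library Prep Kit. Per the submitters' processing notes and the methods, the authors aligned reads with HISAT2 2.0.5, counted them with featureCounts 1.5.0-p3 and deposited FPKM per gene. The same notes name StringTie 1.3.3b and GATK 3.7, and DESeq2, for which the notes and the methods give different versions, was the authors' tool for their own comparisons. The build, the annotation and whether strand was kept are not given in the sources used here. Multiplied by gene length, 100% of the deposited values under 200 reads were whole within 0.02, which gave the reads per gene.

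FPKM were divided by median-ratio size factors (0.996 to 1.00), 0.5 was added and log2 was taken. The 13910 genes with mean FPKM of at least 0.5 were fitted in R 4.3.3 with limma 3.58.1 (trend) in 1 model of the 4 groups, and p was adjusted by Benjamini-Hochberg over all of them. Genes at p under 0.05 after adjustment and changed more than 1.3-fold were called DEGs. Two-sided exact permutation tests of single values cannot go below 0.1 with 3 against 3. The 9 genes enter by name, not by value, but they, the gene lists and the 2 atrial libraries were chosen with earlier results of these data known. Named beside the 9 were, per list and comparison, at most 5 DEGs, those of smallest adjusted p, or else the 2 genes with the smallest, of which the text gives the lists and comparisons that bear on the 9 genes, and the 2 genes with the highest r to each member. Correlations with library measures used 100000 permutations of the libraries, without regard to group. Alternatives were scaling, pseudocount, filter, thresholds, separate fits, robust fits, array weights, voom on recovered reads, the replicate number as a block, covariates for atrial and Y-linked transcripts, removal of the gene-length trend, and leaving out libraries; the gene-length slope as a covariate was added after seeing the data. Deviations of same-numbered LV and RV libraries from their group means correlated between −0.218 and 0.123, so the numbers were not taken as pairs.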

Additional observations from a re-analysis of the deposited data

Results flagged for a closer look

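The response to VO differed between LV and RV, by the test of that difference itself in limma, for Hand1 and Tbx20. For Hand1 the LV response exceeded the RV response by 1.60 on the log2 scale (SE 0.26, adjusted p = 0.0249), with all 3 VO LV libraries above sham LV and all 3 VO RV libraries below sham RV. It was 1.61 with the gene-length slope as a covariate and 1.71 without both atrial libraries, and passed in neither, and the call was lost in 10 of 29 alternative settings. For Tbx20 the difference was 2.73 (SE 0.69, adjusted p = 0.0497). The call was lost in 18 of 29 alternative settings. The difference was 0.61 with the gene-length slope as a covariate and 2.71 (adjusted p = 0.0564) with each library's gene-length trend removed. Sham LV had the lowest group mean of Tbx20, 12.2 FPKM, and slopes of −0.0596 to −0.0277, beside −0.0340 in VO RV replicate 3, where Tbx20 was at 12.7 FPKM.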

How the results depend on the processing

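Of 1602 log2 differences of the 9 genes recomputed under 30 settings, 1482 kept their direction and side of the threshold, 49 lost a call, 33 gained one and 38 changed sign. Every sign change was of a difference that was not called. The call of Hand1 between VO LV and VO RV and over both treatments held in every setting run, and the counts of called genes stayed at 1 between the VO chambers, 0 for VO in the RV and 1 over both treatments.

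The number of DEGs over all genes moved as well. It was 536 between the sham chambers and became 8 with all genes above 0, 7 without both atrial libraries, 1 with the slope covariate, 1321 with array weights and 1521 at an adjusted p under 0.10. It was 0 without sham RV replicate 1, 1 without sham LV replicate 2 and 3 without sham LV replicate 1. It was 4 without sham RV replicate 2 and 5 without VO LV replicate 2. Leaving out any other single library gave 173 to 870. For VO in the LV it was 13 and became 0 with the slope or the Y-linked covariate, 2 without both atrial libraries, 183 at a mean FPKM of at least 1, 341 with voom, 704 with array weights and 954 at an adjusted p under 0.10. With 1 library left out it ranged from 0 to 554. For the difference between responses it was 583 and became 21 with all genes above 0, 2 without both atrial libraries, 0 with the slope covariate, 1045 with array weights and 1599 at an adjusted p under 0.10. It was 0 without VO LV replicate 2 or 3, sham LV replicate 1 or 2, or sham RV replicate 1. It was 4 without sham RV replicate 2, and leaving out any other single library gave 111 to 1003. Between the sham chambers the count of 2 among the 9 became 0 with all genes above 0, 0 without both atrial libraries, 0 with the gene-length slope as a covariate (chosen after seeing the data), 1 with the atrial marker covariate, 1 in a separate fit, 3 with voom on recovered reads, 4 with array weights and 4 at an adjusted p under 0.10. It ranged from 0 to 4 with 1 library left out, being 0 without VO LV replicate 2, sham LV replicate 1 or 2, or sham RV replicate 1 or 2, and 4 without VO RV replicate 2. In the separate fit of the sham libraries the 1 gene called was Tbx5 (adjusted p = 0.0353 by limma). Hand1 and Gata4, the 2 genes called in the main fit, did not pass there. For VO in the LV the count of 0 became 1 at a mean FPKM of at least 1, 1 with voom on recovered reads, 1 in a separate fit, 2 with the atrial marker covariate, 3 with array weights and 3 at an adjusted p under 0.10, and ranged from 0 to 2 with 1 library left out, being 2 without VO RV replicate 3 or sham LV replicate 3. For the difference between responses the count of 2 became 0 with all genes above 0, without both atrial libraries and with the slope covariate, 1 with quantile normalization, a pseudocount of 1, robust eBayes, the Y-linked covariate or the gene-length trend removed, 3 at a mean FPKM of at least 1, with array weights, with voom or with the atrial marker covariate, and 4 at an adjusted p under 0.10. With 1 library left out it ranged from 0 to 4. It was 0 without VO LV replicate 2 or 3, sham LV replicate 1 or 2, or sham RV replicate 1 or 2, 1 without VO LV replicate 1 or VO RV replicate 1 or 3, and 4 without VO RV replicate 2. With all genes above 0 or libraries left out, more genes or fewer samples entered the fit.

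With the replicate number as a block, the counts were 0 between sham chambers, 1 between VO chambers, 0 for VO in either ventricle, 0 for the difference between responses and 1 over both treatments. Over all genes the DEGs were then 3 between sham chambers, 3 for VO in the LV and 1 for the difference between responses. Same-numbered libraries correlated at 0.0446, 0.0377 and 0.123 in sham and at 0.0535, −0.0509 and −0.218 in VO, so the numbers were not taken as pairs. In sham, Y-linked transcripts agreed between chambers for each number, present in replicates 1 and 2 and near 0 in replicate 3. Whether some libraries of 1 number came from 1 animal is not given.

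The sign changes were as follows, on the log2 scale. With the slope covariate, Tbx5 was at 0.076 between sham chambers, −0.21 for VO in the LV, 0.32 for VO in the RV and −0.53 between responses. Gata4 was at −0.051 between VO chambers and 0.088 for VO in the RV, Hand2 at −0.0503 for VO in the LV, Tbx3 at 0.11 for VO in the LV, −0.10 for VO in the RV and 0.21 between responses, and Tbx20 at 0.0079 for VO in the RV and 0.041 over both treatments. With array weights, Tbx5 was at 0.0203 between VO chambers, Hand2 at −0.076 for VO in the LV and 0.012 over both treatments, and Tbx3 at −0.0019 for VO in the RV. Between VO chambers Tbx5 was at 0.24 with the atrial covariate and 0.44 without both atrial libraries. With the gene-length trend removed, Hand2 was at −0.14 between sham chambers, and with the Y-linked covariate Tbx3 was at 0.022 for VO in the LV. With 1 library left out, Hand2 ranged from −0.22 to 0.29 between sham chambers, −0.21 to 0.30 for VO in the LV, −0.51 to 0.0013 between responses and −0.22 to 0.038 over both treatments. Tbx5 ranged from −0.49 to 0.44 between VO chambers and −0.75 to 0.18 for VO in the RV, Gata4 from −0.016 to 0.17 between VO chambers, and Tbx3 from −0.14 to 0.12 for VO in the RV and −0.20 to 0.0599 between responses. Over both treatments Gata6 ranged from −0.11 to 0.0059 and Nkx2-5 from −0.054 to 0.048. The cause of these changes was not tested. Depth limits Hand1 in VO RV, with 5 or 6 reads per library.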
